A study of Rattus norvegicus with 12 samples.

Results

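The genes described here are the collagens, the chains of the main structural proteins of the extracellular matrix. Their probes were taken from a microarray study of male fetal Wistar rats as every probe whose platform symbol is Col, a number, a and a number, with nothing after it. The rule found 25 probes of 22523, each for a different gene, and all 25 symbols are also RefSeq symbols. RefSeq lists 44 rat genes of this name form, so the array measured 25 of 44; Col4a2 is among those with no member probe. A detection p-value below 0.05 on at least 3 of the 12 arrays was required for a test, and 21 of the 25 collagen probes met it.

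Pregnant Wistar rats were given TCDD (2,3,7,8-tetrachlorodibenzo-p-dioxin, a persistent pollutant that activates the aryl hydrocarbon receptor) by mouth in corn oil on gestational day 15. The series text gives the dose as 1 µg/kg and the sample labels as 1 mg/kg, a conflict the files do not settle. Total RNA of fetal pituitary and fetal hypothalamus was taken on gestational day 20 and hybridised to Illumina RatRef-12 BeadChips, 1 array per sample. The 4 groups were control pituitary (replicates 1, 2 and 3), TCDD pituitary (1, 2 and 5), control hypothalamus (1, 3 and 5) and TCDD hypothalamus (1, 3 and 4). The labels do not say what the control dams received, whether fetuses were pooled, or whether replicates came from different litters, and the p-values below then cover only how far these particular samples varied. The number of arrays, 3 a group, limits the precision of every value below.

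A collagen molecule is a triple helix of 3 chains, which are hydroxylated in the endoplasmic reticulum, secreted, and in the fibrillar types trimmed and crosslinked into fibres. Fibrillar collagens give tissue its tensile strength, network-forming collagens such as type IV hold up basement membranes, and other types coat fibrils or span the cell membrane. In and around the brain, collagen is known mainly from the meninges and the vessel walls, while the pituitary is enclosed in a connective tissue capsule and lies against the developing bone and cartilage of the skull base.

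Median raw signals lay between 92.5 and 120.8 per array, and 47.4% to 54.5% of probes were detected. Values below are normalized log2 signals, and a difference of 1 is a doubling. The tissue labels held against their markers: the 6 tested pituitary hormone genes averaged 11.08 to 12.46 per array in pituitary and 5.93 to 6.35 in hypothalamus, and hypothalamic neuropeptide genes averaged 9.49 to 9.86 in hypothalamus and 6.33 to 6.70 in pituitary. All 5 tested target genes of the TCDD receptor were called higher after TCDD in the pituitary, against 0.384% of all tested probes. Their array means went from 7.01 to 7.07 in controls to 9.99 to 10.11. Each TCDD pituitary array detected 5 of them and each control pituitary array 2. Genes detected in TCDD pituitary alone could enter the test only by being high there. TCDD itself was not measured in either tissue. In hypothalamus the same 5 genes averaged 5.98 to 6.31 in controls and 6.61 to 6.82 after TCDD. These array means did not overlap, which held in that direction for 6.97% of single probes. Each hypothalamus array detected 2 of the 5 genes, the median change was 0.13, and none of the genes passed the test.

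Promoters show what lies upstream of the genes the results turn on. Of the 25 collagens, 20 had a RefSeq start site in the GRCr8 build, and the 250 bases before it were read on the strand of the gene. Col5a3 is shown because it was the collagen that passed the TCDD test in pituitary, Col8a1 because it had the largest tissue difference, and Col1a2 as a chain of type I collagen. Capitals mark GCGTG, the core bound by the activated dioxin receptor, on either strand. The windows are chr8:27625949-27626198 on the minus strand for Col5a3, chr11:56246532-56246781 on the plus strand for Col8a1 and chr4:33518307-33518556 on the plus strand for Col1a2.
Col5a3: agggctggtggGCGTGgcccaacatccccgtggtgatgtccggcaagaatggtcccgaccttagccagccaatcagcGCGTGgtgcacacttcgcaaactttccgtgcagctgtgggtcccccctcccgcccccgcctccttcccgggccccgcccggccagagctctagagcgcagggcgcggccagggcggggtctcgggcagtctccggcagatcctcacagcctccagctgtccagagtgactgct
Col8a1: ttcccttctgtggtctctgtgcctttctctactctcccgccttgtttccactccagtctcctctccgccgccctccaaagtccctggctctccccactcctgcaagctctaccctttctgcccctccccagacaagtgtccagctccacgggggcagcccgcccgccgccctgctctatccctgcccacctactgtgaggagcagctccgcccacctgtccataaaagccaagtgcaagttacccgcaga
Col1a2: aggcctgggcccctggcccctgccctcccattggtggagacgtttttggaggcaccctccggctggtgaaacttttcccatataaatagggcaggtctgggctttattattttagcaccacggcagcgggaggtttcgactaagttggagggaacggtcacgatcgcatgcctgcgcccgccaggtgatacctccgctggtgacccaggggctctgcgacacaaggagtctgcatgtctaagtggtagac
The Col5a3 window held 2 GCGTG cores, from 239 to 235 and from 173 to 169 bases before the start, and the other windows shown held 0. One core or more stood in 8 of the 20 collagen windows and in 25.9% of all 33469 rat windows of this length. A count of 2 or more cores stood in 8.12% of all windows and, among the collagens, in that of Col5a3. GGGCGG, the GC box of Sp1-type factors, stood in 11 of 20 collagen windows against 30.5% of all, with 4 matches for Col8a1 and 3 for Col5a3. CCAAT stood in 5 of 20 against 34.0%, and TATAAA in 3 of 20 against 12.9%. Col1a2 was one of the latter, with TATAAA from 170 to 165 bases before the start. Motifs were searched on both strands, and a match is a description of the letters and not of binding. Col4a1 shares its promoter with Col4a2, which is transcribed the other way, with 76 bases between the starts.

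The comparison of the tissues in controls asks how the collagens of fetal pituitary and hypothalamus differ. In pituitary, 19 of the 21 tested collagens were higher, from Col8a1 (7.36 ± 0.17 SE on the log2 scale) to Col17a1 (0.92, with the hypothalamus arrays below detection), and none was lower past the threshold. The same comparison called 33.7% of all 13018 tested probes higher in pituitary and 35.9% lower, 69.5% in all. The median log2 difference was 2.31 over the tested collagens and -0.05 over all tested probes. Collagens detected in pituitary alone could enter the test only by being high there, so the 11 detected on all 12 arrays and the whole set of 25 are given too: 11 of 11 were higher in pituitary, and without the detection filter 19 of 25 were, against 20.3% of all probes. For 19 of the 21, every control pituitary array lay above every control hypothalamus array, which held for 35.5% of probes, and for 1, Col4a4, every one lay below, which held for 37.8%. Each p-value is from limma with Benjamini-Hochberg adjustment over all tested probes, at a threshold of 0.05. In whole tissue, fewer cells of a type and less RNA per cell cannot be told apart.

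**Figure D1:**
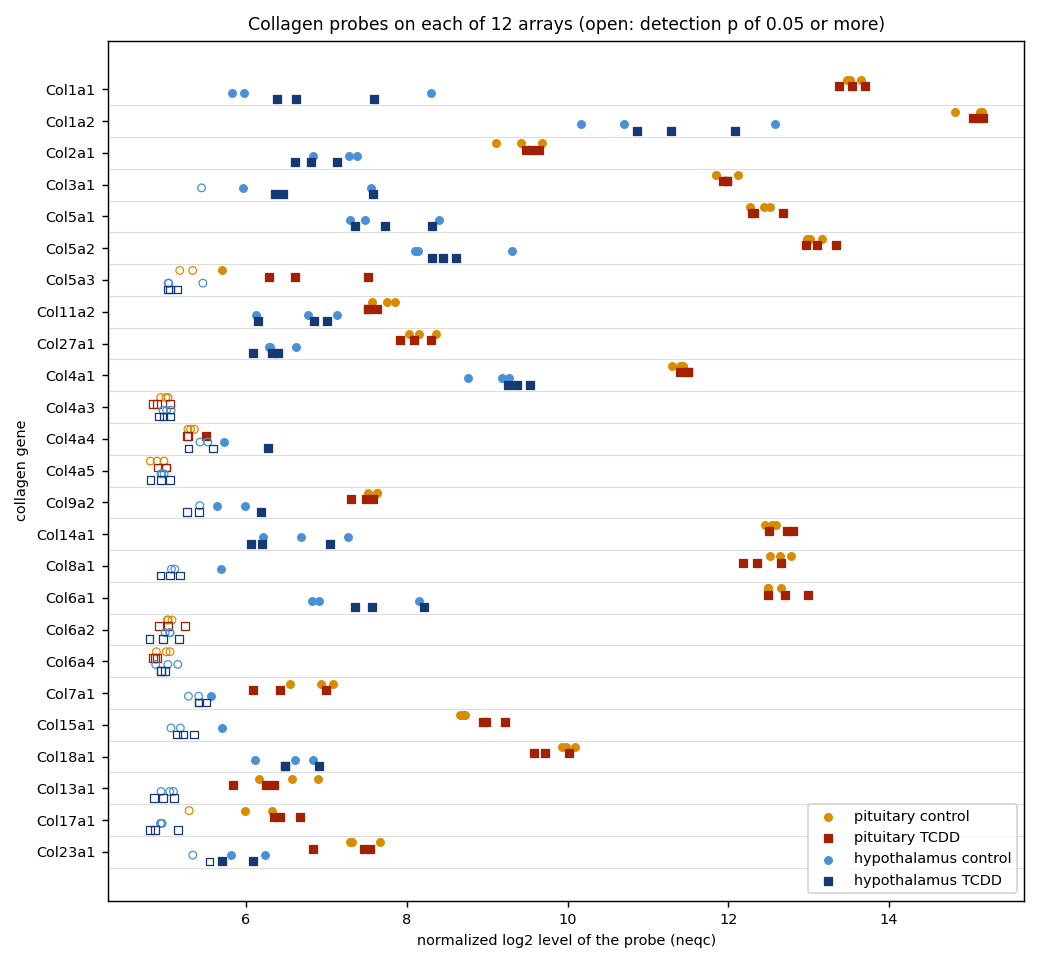
Normalized log2 level (horizontal axis) of each of the 25 collagen probes (rows, ordered by class) on each of the 12 arrays, with colour and symbol for the group and open symbols for a detection p-value of 0.05 or more. The pituitary points lie to the right of the hypothalamus points for most genes, and the 4 probes detected on no array lie between 4.80 and 5.25.

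Among the fibrillar collagens, 8 of 9 tested members were higher in control pituitary, against 33.7% of all tested probes. Type I collagen, the main fibre of bone, skin and meninges, is built from the chains Col1a1 and Col1a2. Col1a1 stood at 13.52, 13.48 and 13.65 on the control pituitary arrays and at 5.82, 8.30 and 5.98 on the control hypothalamus arrays, values being given here and below in order of replicate number. After TCDD it stood at 13.54, 13.71 and 13.37 in pituitary and at 6.39, 7.59 and 6.62 in hypothalamus. The tissues did not overlap, and the pituitary arrays lay close together while hypothalamus replicate 3 stood above its group. The difference in controls was 6.85 ± 0.51, a 115-fold higher signal in pituitary (adjusted p = 1.26e-07). The SE rests on a variance shared by all 4 groups, and the SD was 1.39 in control hypothalamus and 0.09 in control pituitary. It therefore understates the spread of the control hypothalamus arrays.

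Col1a2 showed the same order at a smaller difference. Its levels were 15.12, 15.16 and 14.81 in control pituitary and 10.70, 12.57 and 10.17 in control hypothalamus. TCDD pituitary gave 15.04, 15.16 and 15.12, and TCDD hypothalamus gave 10.86, 12.08 and 11.29. The difference in controls was 3.88 ± 0.48, or 14.7-fold (adjusted p = 1.05e-05), with replicate 3 again the highest hypothalamus array of each group.

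Col3a1, the chain of type III collagen, which forms fine fibrils in vessel walls and soft tissue, was 49.2-fold higher in control pituitary (5.62 ± 0.44, adjusted p = 1.70e-07). Its control levels were 11.84, 11.85 and 12.13 in pituitary and 5.96, 7.55 and 5.45 in hypothalamus, the last of these not detected. The TCDD arrays gave 11.98, 11.94 and 11.98 in pituitary and 6.46, 7.58 and 6.36 in hypothalamus. Pituitary arrays therefore spanned 0.28 in all for this gene, and hypothalamus arrays 2.13. Col5a1 and Col5a2, chains of the type V collagen that starts and sizes type I fibrils, were higher in control pituitary by 4.69 and 4.54.

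The cartilage collagens differed less. Col2a1, the chain of type II collagen, the main fibre of cartilage and of the notochord, stood at 9.42, 9.68 and 9.11 in control pituitary and at 6.83, 7.37 and 7.28 in control hypothalamus, a difference of 2.25 ± 0.18. Col11a2, a chain of the type XI collagen of cartilage fibrils, was higher by 1.05 (adjusted p = 0.00195), and Col27a1, a fibrillar collagen of developing cartilage, by 1.78. Col9a2, a chain of the type IX collagen that decorates type II fibrils, was higher by 1.91. Col5a3, a chain of restricted distribution in the type V family that is known from Schwann cells of the rat, did not pass the test in controls (0.23, adjusted p = 0.447), both groups lying near background.

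**Figure D2:**
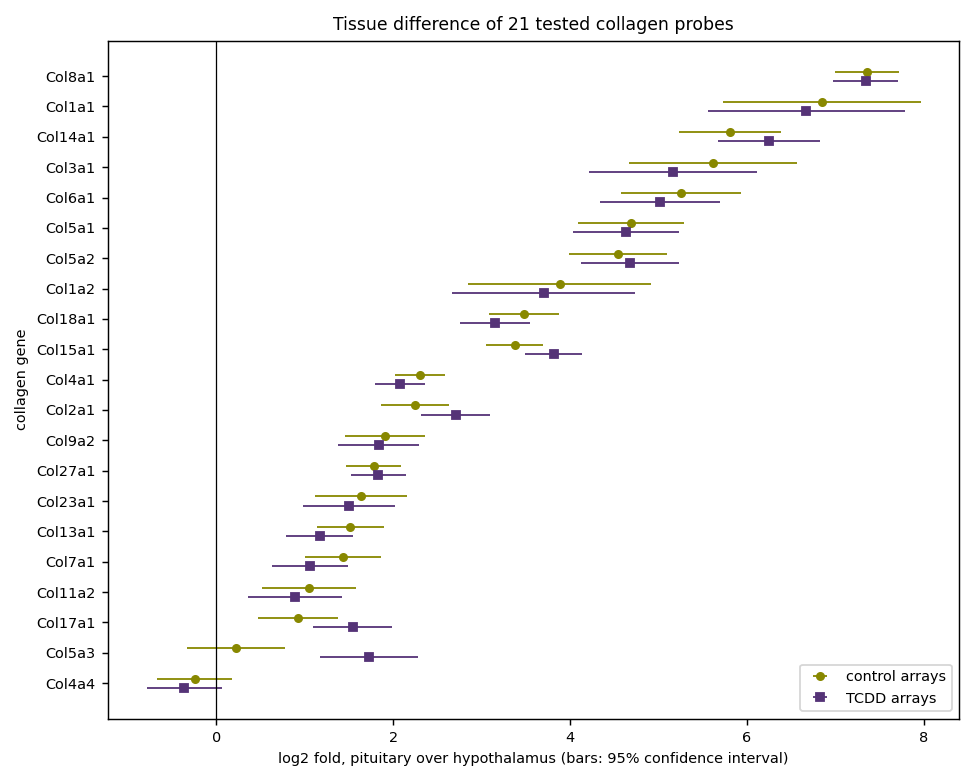
Log2 difference, pituitary minus hypothalamus, of each tested collagen in control and in TCDD samples, with 95% intervals from the limma fit, ordered by size. Values run from -0.24 (Col4a4) to 7.36 (Col8a1) in controls, and the collagens above the zero line in controls are also above it in TCDD samples.

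Col8a1, which forms hexagonal networks with Col8a2 in corneal and vessel-wall matrix, had the largest difference of the family. It stood at 12.64, 12.52 and 12.78 in control pituitary and at 12.66, 12.36 and 12.18 after TCDD. Control hypothalamus gave 5.07, 5.68 and 5.12, of which replicate 3 alone was detected, and TCDD hypothalamus gave 5.06, 5.18 and 4.94, with none detected. The fitted control difference was 164-fold (adjusted p = 2.04e-11), a value that rests on 2 of 3 hypothalamus arrays below detection. In TCDD samples the hypothalamus gave only a bound, set by the lowest detected signal of each array, and the pituitary signal was at least 108-fold higher.

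Of the collagens that sit on fibrils or link them to cells, Col14a1, which coats type I fibrils, and Col6a1, a chain of the beaded filaments of type VI, differed most. Col14a1 stood at 12.45, 12.54 and 12.60 in control pituitary and at 6.21, 7.27 and 6.69 in control hypothalamus, 56.0-fold apart (adjusted p = 2.25e-09). Col6a1 stood at 12.49, 12.49 and 12.66 against 6.91, 8.16 and 6.82, 38.2-fold apart (adjusted p = 1.70e-08). Neither gene's pituitary arrays came near its hypothalamus arrays. The probe for Col6a2, whose product assembles with that of Col6a1 and whose gene is its neighbour in RefSeq, was detected on no array and gives no level. Col7a1, the collagen of the anchoring fibrils under epithelia, was higher in pituitary by 1.43.

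Basement membrane collagens were covered thinly. Col4a1, a chain present in nearly all basement membranes, stood at 11.44, 11.30 and 11.40 in control pituitary and at 8.76, 9.27 and 9.19 in control hypothalamus, a 4.95-fold difference (2.31 ± 0.13, adjusted p = 1.15e-08). Col4a4, a chain of specialised basement membranes such as that of the kidney glomerulus, was detected on 3 arrays, 1 of pituitary and 2 of hypothalamus, and did not pass (-0.24, adjusted p = 0.283). Col4a3 and Col4a5, its partners in those membranes, and Col6a4 were detected on no array. The multiplexins Col18a1, the source of endostatin, and Col15a1, both of the basement membrane zone, were higher in pituitary by 3.48 and 3.37.

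All 3 tested transmembrane collagens were higher in control pituitary, against 33.7% of all tested probes. Col13a1 and Col17a1 met the detection filter only through the pituitary arrays, so they could enter the test only by being high there. Col23a1 differed by 1.64. Col13a1, known from the neuromuscular junction, was detected on no hypothalamus array and was at least 1.96-fold higher (adjusted p of the fitted difference 6.08e-06). Col17a1, the collagen of hemidesmosomes, was likewise undetected in hypothalamus and at least 1.23-fold higher (adjusted p of the fitted difference 0.00149).

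In the TCDD samples the tissue comparison gave 20 of 21 tested collagens higher in pituitary, the added one being Col5a3, against 33.4% of all probes. Without the filter, 20 of 25 were higher, against 20.4% of all probes. The 11 collagens detected everywhere were all higher again, and the collagen median was 2.71 against -0.05 over all probes. Col1a1, Col14a1, Col3a1 and Col6a1 differed by 6.67, 6.25, 5.17 and 5.02.

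Markers of connective tissue cells were also mostly higher in control pituitary, to differing degrees. Of all tested probes, 33.7% were called higher there, and the median size of difference, without sign, was 0.587. As with the collagens, genes of any list detected in pituitary alone could enter the test only by being high there. All 11 fibroblast and mesenchyme markers were higher in control pituitary (median 4.38). Their mean level ran from 9.85 to 10.37 over the pituitary arrays and from 5.77 to 6.53 over the hypothalamus arrays. Every pituitary array detected all 11, and each hypothalamus array 4 or 5. All 6 tested bone markers were higher as well (median 3.18), with Sp7 detected on no array, as were 3 of 5 cartilage markers (median 0.89, Matn3 undetected). Meninges markers were higher for 5 of 7 (median 2.00), endothelial markers for 5 of 7 (median 1.15, Cdh5 and Robo4 undetected) and pericyte markers for 4 of 7 (median 0.63, Rgs5 and Notch3 undetected). The part of these cells in the collagen difference was not tested. The authors' own values, in which each tissue appears to have been normalized apart, kept the direction of all 19 but gave smaller sizes, 4.55 for Col8a1 and 3.65 for Col3a1.

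Genes that make, bind and remodel collagen mostly differed in the same direction, against 33.7% of all tested probes called higher. Of 25 tested genes of collagen synthesis and crosslinking, 23 were higher in control pituitary and 1 lower (median 2.08), among them Loxl2, a crosslinking lysyl oxidase (4.09), Fkbp10, a collagen chaperone (3.85), and P4ha1, a prolyl 4-hydroxylase subunit (2.62). The exception that passed in the other direction was Serpinh1, the collagen chaperone HSP47 (-0.62), named after its value was seen. All 17 fibril-binding matrix genes were higher (median 2.99), including Thbs2 (3.83), Fbn1, the microfibril protein fibrillin (3.65), and Aspn (5.82). Of these 17, 10 to 13 were detected per hypothalamus array and 15 to 17 per pituitary array. Collagenases and their inhibitors gave 8 higher and 1 lower of 10 (median 1.29), with Mmp14 at 4.46, Ctsk at 4.15 and Timp1 at 3.13.

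Collagen receptors were mixed, 5 higher and 1 lower of 7 (median 0.67), against 33.7% higher and 35.9% lower of all tested probes. Itgb1, the shared beta chain of the collagen-binding integrins, was higher in pituitary by 1.69 and its partner Itga11 by 3.37, whereas Adgrg1, a receptor for type III collagen in the developing mouse brain, was lower (-1.54). Of 12 TGF-beta pathway genes, which regulate collagen transcription, 10 were higher (median 1.47), with Tgfbi at 3.74, Tgfb3 at 2.76 and Tgfb1 at 2.53. Among 3 tested basement membrane partners, 1 was higher, Lamb2 (3.22), a laminin chain. Of 11 neuron markers, 9 were lower in pituitary (median -1.68).

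The pituitary comparison asks whether maternal TCDD changed collagen transcripts in the fetal gland. Of the 21 tested collagens, 1 rose, Col5a3, and 0 fell, by limma with adjustment over all probes. Over the whole array, 0.668% of tested probes passed, 0.384% higher and 0.284% lower. Col5a3 met the detection filter only through the TCDD pituitary arrays, where it was high, and without the detection filter 0 of 25 collagens passed, against 0.244% of all probes higher and 0.169% lower. At an unadjusted p below 0.05, 4 of 21 collagens passed, against 11.5% of all probes. The median log2 change was 0.03 over the collagens and -0.01 over all tested probes, and the median size of change, without sign, was 0.152 and 0.117.

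**Figure D3:**
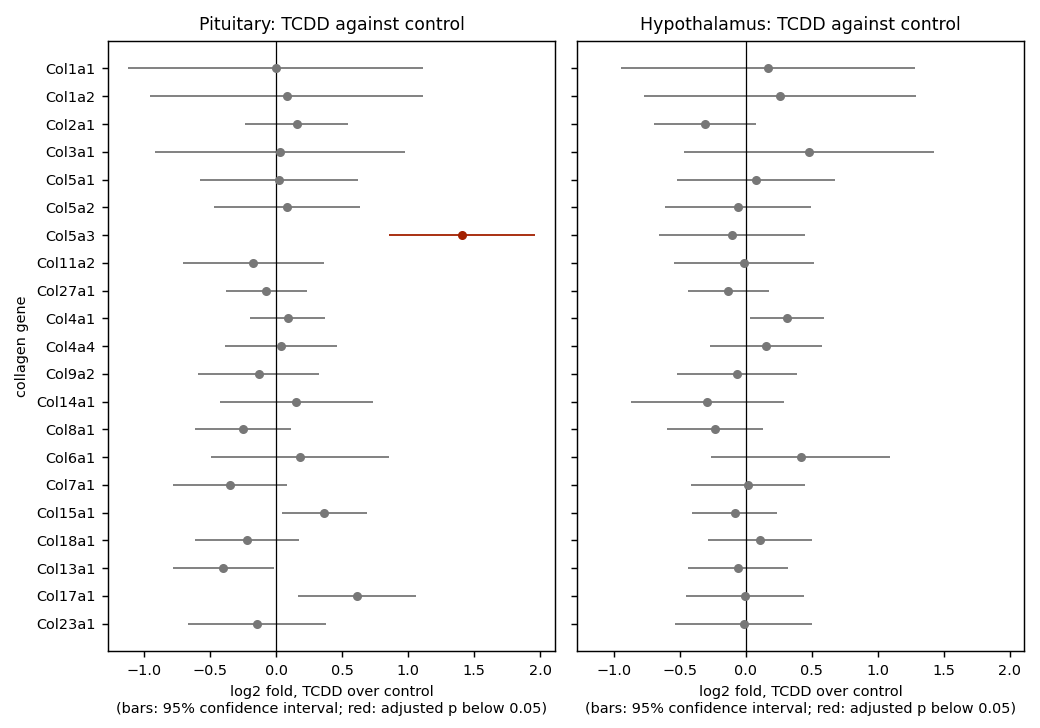
Log2 change, TCDD minus control, of each tested collagen in pituitary and in hypothalamus, with 95% intervals from the limma fit. Col5a3 in pituitary (1.40) is the value that passed the adjusted test, and the intervals of most others include 0.

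Col5a3 stood at 5.18, 5.34 and 5.70 on the control pituitary arrays and at 6.62, 6.29 and 7.52 on the TCDD pituitary arrays. The groups did not overlap, TCDD replicate 5 being the highest array. The rise was 1.40 ± 0.25 SE, or 2.65-fold, with a 95% interval of 0.85 to 1.96 and an adjusted p of 0.0265. This SE rests on a variance shared by all 4 groups, which understates the pituitary spread of this gene. The SDs were 0.27 (control) and 0.64 (TCDD) in pituitary, against 0.25 and 0.06 on the hypothalamus arrays, where it was undetected. The gene sat near the limit of the array: it was detected on 1 of 3 control and 3 of 3 TCDD arrays, with raw signals of 87.7, 94.1 and 124.8 against 163.3, 156.9 and 274.2. The call was lost without control replicate 1 (adjusted p = 0.129), control replicate 2 (0.107) or TCDD replicate 1 (0.0722). It was also lost when all probes were tested without the detection filter (0.0530), when pituitary was normalized and fitted alone (0.157), and with the authors' values, in which the change was 0.35 (0.0703).

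TCDD replicate 5 of the pituitary also stood apart in other genes. Its neuron markers averaged 10.53, against 9.04 to 9.51 on the other pituitary arrays. Its Schwann cell markers, a list chosen after the Col5a3 values were seen, averaged 9.17 against 8.02 to 8.34. This list was not particular to pituitary: each hypothalamus array detected 7 of its 8 tested genes. Between the control tissues 3 of 8 were higher in pituitary and 3 lower (median 0.05), against 33.7% and 35.9% of all tested probes. No gene of the neuron or Schwann cell list passed the TCDD test in pituitary, and the list medians were 0.36 for both. Without this array the rise of Col5a3 was 1.03 (adjusted p = 0.0181), and the part of these cells in the rest of it was not tested.

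**Figure D4:**
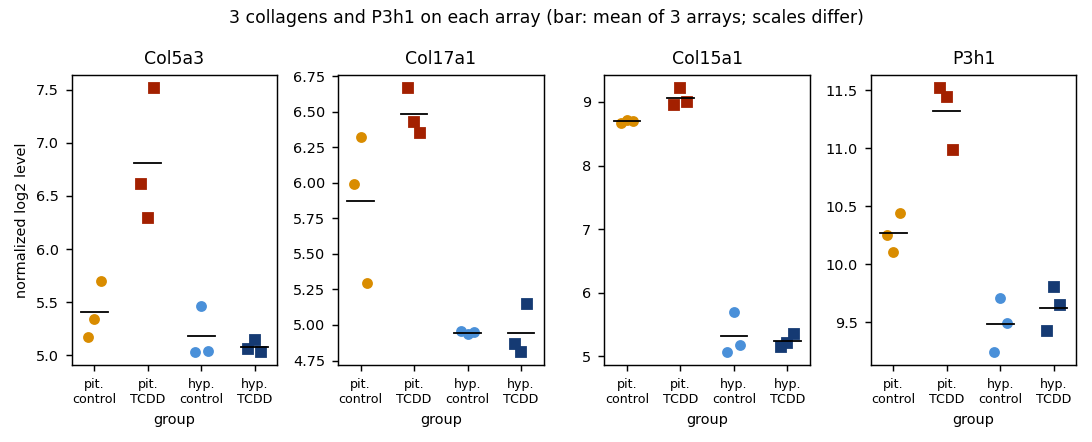
Normalized log2 level of Col5a3, Col17a1, Col15a1 and P3h1 on every array (points), with the mean of the 3 arrays of each group (bar). For each of the 4 genes the 3 TCDD pituitary arrays lie above the 3 control pituitary arrays, and for Col17a1 the gap is narrow (6.35 against 6.33).

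Col17a1 and Col15a1 followed by size of p among the collagens with higher means, and neither passed. Col17a1 stood at 5.99, 6.33 and 5.29 in controls and at 6.67, 6.43 and 6.35 after TCDD, a difference of 0.61 ± 0.21 (adjusted p = 0.273). Col15a1 stood at 8.66, 8.72 and 8.70 and at 8.95, 9.22 and 8.99, a difference of 0.36 ± 0.15 (adjusted p = 0.373). For 3 of 21 collagens, these and Col5a3, every TCDD array lay above every control array, against 9.16% of all probes, and for 0 of 21 every TCDD array lay below, against 10.8%.

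The collagens with the lowest p among those with lower means were Col13a1, Col7a1 and Col8a1, and none passed. Col13a1 stood at 6.90, 6.58 and 6.17 in controls and at 6.24, 6.35 and 5.84 after TCDD (-0.40 ± 0.18, adjusted p = 0.403). Col7a1 stood at 7.08, 6.94 and 6.54 and at 6.42, 7.0 and 6.08 (-0.35 ± 0.20, adjusted p = 0.546). For Col8a1, whose arrays are given above, the difference was -0.25 ± 0.17 (adjusted p = 0.617). In each of these genes the groups overlapped.

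The chains of the common fibres gave small differences with wide intervals. Col1a1 differed by -0.01 ± 0.51, with an interval of -1.12 to 1.11, Col1a2 by 0.08 ± 0.48 and Col3a1 by 0.03 ± 0.44. These intervals rest on a variance shared with the hypothalamus arrays, whose spread in these genes was several times that of the pituitary arrays. Col2a1, at 9.65, 9.55 and 9.49 after TCDD, differed by 0.15 ± 0.18, and Col4a1, at 11.50, 11.50 and 11.40, by 0.08 ± 0.13. A change of up to about 1 on the log2 scale in Col1a1 could not be told from none by this fit.

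Genes around the collagens changed singly in pituitary. Of 25 tested synthesis and crosslinking genes, 1 rose and 0 fell (median -0.05), against 0.384% of all tested probes higher and 0.284% lower. That gene was P3h1, prolyl 3-hydroxylase 1, which modifies fibrillar collagen chains in a complex with Crtap and Ppib. It stood at 10.25, 10.11 and 10.44 in controls and at 11.52, 11.45 and 10.99 after TCDD, without overlap, a rise of 1.05 ± 0.17 (adjusted p = 0.0118). Its partners Crtap (-0.23, adjusted p = 0.548) and Ppib (-0.12, adjusted p = 0.740), named after P3h1 was seen to pass, did not. The P3h1 call was lost without control replicate 1 (0.0557) or 2 (0.0705), without TCDD replicate 1 (0.0706) or 2 (0.0559), and with pituitary fitted alone (0.0912).

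Of 17 fibril-binding matrix genes, 1 rose, Thbs4, a thrombospondin of tendon and synapses (0.63 ± 0.09, adjusted p = 0.00553), and the median was 0.03. Over all tested probes, 0.384% rose and 0.284% fell. Of 7 collagen receptors, 1 rose, Adgrg1 (0.55 ± 0.11, adjusted p = 0.0458, median 0.02), a call that was lost on leaving out any single array other than hypothalamus control 1 or 3 (0.0548 to 0.168). None of 10 collagenases and inhibitors passed (median 0.00), the lowest p being that of Mmp9, gelatinase B (-1.38, adjusted p = 0.136). None of 12 TGF-beta pathway genes passed (median -0.01, Ltbp2 -0.46, adjusted p = 0.154), nor any of 3 basement membrane partners (median 0.16, Agrn 0.36, adjusted p = 0.244).

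Markers of some tissues that adjoin the gland differed between the pituitary groups. The counts below stand against 0.384% of all tested probes called higher after TCDD and 0.284% called lower. The 6 tested bone markers averaged 9.60, 9.91 and 8.78 in controls and 8.39, 8.22 and 8.30 after TCDD, with a median change of -1.23, and 1 of 6 fell, Panx3 (-1.91 ± 0.37, adjusted p = 0.0390). The Panx3 call was lost on leaving out any single array other than pituitary control 3. Of 9 skeletal muscle markers 4 fell, among them Myl11, Tnnc2 and Ckm (median -0.60, Mb undetected), though of 23 alternatives 1 lost the call of Myl11, 7 that of Tnnc2 and 13 that of Ckm. The mean of the list went from 6.71, 6.88 and 7.20 to 6.13, 6.0 and 6.47. Meninges markers averaged 10.37, 11.31 and 11.03 and then 10.81, 10.70 and 9.54, with 0 of 7 passing, and fibroblast markers averaged 10.16 to 10.29 and 9.85 to 10.37, with 0 of 11. Of 7 endothelial markers 1 rose, Vwf (1.08, adjusted p = 0.0315), a call lost in 10 of 23 alternatives (adjusted p up to 0.153), while 0 of 5 cartilage and 0 of 7 pericyte markers passed. The part of these tissues in the collagen values was not tested.

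In the hypothalamus, 0 of 21 tested collagens passed the same test, against 0.023% of all probes. At an unadjusted p below 0.05, 1 of 21 passed, Col4a1, against 10.9% of all probes. The median change was -0.01 over the collagens and -0.00 over all tested probes. No collagen separated the control from the TCDD arrays, against 6.97% of all probes in each direction.

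Col4a1 stood at 8.76, 9.27 and 9.19 in controls and at 9.37, 9.53 and 9.25 after TCDD, an overlap of a single pair of arrays (0.31 ± 0.13, interval 0.03 to 0.59, adjusted p = 0.414). Col6a1 went from 6.91, 8.16 and 6.82 to 7.35, 8.21 and 7.57 (0.42 ± 0.31, adjusted p = 0.667). Col3a1, whose arrays are given above, differed by 0.48 ± 0.44 (adjusted p = 0.731), Col1a1 by 0.17 ± 0.51 (adjusted p = 0.939) and Col1a2 by 0.26 ± 0.48 (adjusted p = 0.882). On the lower side, Col2a1 went from 6.83, 7.37 and 7.28 to 7.13, 6.81 and 6.61 (-0.31 ± 0.18, adjusted p = 0.574). Col14a1 stood at 6.20, 7.04 and 6.06 after TCDD (-0.29 ± 0.27, adjusted p = 0.736), and Col8a1, near background, differed by -0.23 ± 0.17 (adjusted p = 0.653). In each of these 8 genes the groups overlapped.

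Col5a3 was detected on no hypothalamus array, with levels of 5.03, 5.46 and 5.04 in controls and 5.06, 5.15 and 5.03 after TCDD. The test of the difference between the TCDD effects of the tissues gave 1.51 ± 0.36 for this gene, with an interval of 0.72 to 2.29. It did not pass the adjustment (adjusted p = 0.163), and 0 of 21 collagens did, against 0.2% of all probes. Unadjusted, 1 of 21 passed, Col5a3, against 11.8%. Among the common chains, Col1a1 gave -0.17 ± 0.73, Col1a2 -0.18 ± 0.67, Col2a1 0.46 ± 0.25, Col3a1 -0.45 ± 0.62 and Col4a1 -0.23 ± 0.18 on this scale, none past the test. The collagen median of this difference was -0.12, against -0.00 over all tested probes.

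None of the collagen-related lists had a gene past the test in hypothalamus. The 25 synthesis genes had a median change of 0.15, against -0.00 over all tested probes, and 20 of 25 lay above 0. Among them Plod2, a lysyl hydroxylase, had the lowest p (0.22, adjusted p = 0.446). The 12 TGF-beta pathway genes had a median of 0.09 and were led by Ccn2, a target of the pathway (0.70, adjusted p = 0.272). The collagenase list had a median of 0.06, led by Mmp14 (0.33, adjusted p = 0.349), and receptors, fibril-binding genes and basement membrane partners had medians of 0.07, 0.01 and 0.11.

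The collagens detected on all 12 arrays varied more between hypothalamus arrays than between pituitary arrays. All 11 of 11 had a wider range over the 6 hypothalamus arrays than over the 6 pituitary arrays, against 57.7% of 9206 probes. The median range of these 11 was 1.11 in hypothalamus and 0.375 in pituitary, against 0.437 and 0.386 over the same 9206 probes. Of the other 10 tested collagens, 6 ranged wider in hypothalamus and 4 in pituitary: Col5a3 (2.34 against 0.44), Col17a1 (1.38 against 0.34), Col13a1 (1.05 against 0.25) and Col7a1 (0.99 against 0.28). Col1a1 ranged over 2.47 in hypothalamus and 0.33 in pituitary, and Col1a2 over 2.40 and 0.35. Both treatment groups shared this spread: the replicates numbered 3 of control and of TCDD were the highest of the 6 arrays for 7 of these 11 collagens (Col1a1, Col1a2, Col5a1, Col5a2, Col6a1, Col14a1 and Col18a1), a pattern found in 4.05% of the 9978 probes detected on all hypothalamus arrays. For 0 of 11 were they the lowest, against 4.28%. This pattern was noticed in the data and carries no test.

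**Figure D5:**
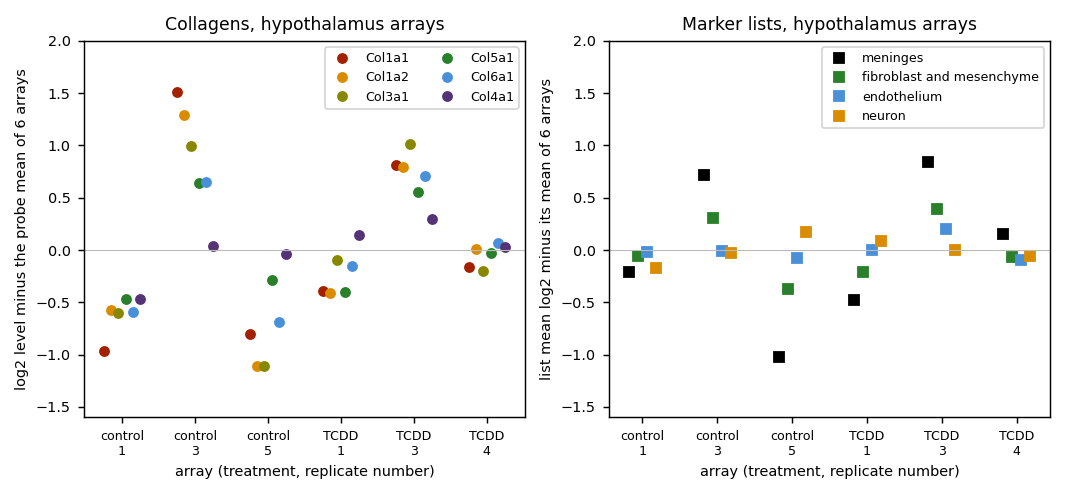
Level on each of the 6 hypothalamus arrays minus the mean of the 6, on the log2 scale, for 6 collagen probes (left) and for the mean of 4 marker lists (right). Control replicate 3 and TCDD replicate 3 stand highest for the fibrillar collagens, Col6a1 and the meninges markers, while Col4a1, endothelial and neuron markers move less.

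The same arrays were high in meninges and fibroblast markers, among other lists. Meninges markers averaged 8.82, 9.75 and 8.02 in controls and 8.56, 9.88 and 9.19 after TCDD, and fibroblast markers 6.08, 6.45 and 5.77 and then 5.94, 6.53 and 6.07. Replicate 3 of each group was thus the highest array for both lists. Fibril-binding genes averaged 7.32 and 7.28 on those arrays against 6.42 to 6.73 on the others, and synthesis genes 7.96 and 8.06 against 7.52 to 7.76. By smaller margins, the same arrays were also highest for collagen receptors (7.99 and 8.09, others up to 7.95) and collagenases (7.91 and 7.82, others up to 7.71). So they were for cartilage markers (5.76 and 5.70, others up to 5.68) and pericyte markers (6.63 and 6.74, others up to 6.57). Endothelial markers (8.06 to 8.36), also highest on replicate 3 of each group, and neuron markers (10.96 to 11.29), which were not, varied less than meninges markers. The part of meninges or of the other tissues in the collagen values was not tested. With both arrays left out, a setting chosen after seeing the data, Col1a1 differed between the control tissues by 7.63 and Col3a1 by 6.22, Col3a1 differed between the treatments in hypothalamus by 0.72 (adjusted p = 0.465), 0 collagens passed there, and the adjusted p of Col5a3 in pituitary was 0.0584.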

How the data were processed

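Gene expression was measured on Illumina RatRef-12 BeadChips in 12 samples, 4 groups of 3. Per the file headers, the authors deposited 1 table of non-normalized probe signals (intensity), each signal with its detection p-value, and 1 table of processed values on what reads as a log2 scale. The steps behind both tables are not given in the sources used here, so any earlier background handling is unknown. Column medians of the authors' log2 values were 7.91 on every hypothalamus array and 7.89 on every pituitary array, so each tissue appears to have been normalized apart. Within each array they ranked all probes as the raw signals did, which sets their direction, while their exact scale and centring stay unknown. They serve as an alternative only.

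Signals were background corrected with the detection p-values, offset by 16, quantile normalized and put on a log2 scale with limma 3.58.1 (neqc) in R 4.3.3. Probes with a detection p-value below 0.05 on at least 3 arrays were kept: 13018 of 22523. A linear model with 4 group means and limma's moderated test was fitted to all 12 arrays, with 8 residual and 4.19 prior degrees of freedom. Benjamini-Hochberg adjustment covered all tested probes, with a threshold of 0.05. The fit was tested on simulated data with known changes. The platform annotation gave 13793 probes 1 symbol and 8730 none. A probe undetected on all arrays of a group has a bound: the brighter group over the higher of the lowest detected signal and the probe's own, per array.

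The members and gene lists were chosen with earlier results of these data known, and the Schwann cell list after the values of Col5a3 were seen. Genes named are those past the threshold, or up to 3 of lowest p per direction, with Col1a1, Col1a2, Col2a1, Col3a1 and Col4a1 always, the 5 largest tissue differences, and up to 3 genes per list. Alternatives were background correction, offset, scaling, the authors' values, detection filters, tissues fitted alone, array weights, an intensity trend, a replicate block and each array left out.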

Additional observations from a re-analysis of the deposited data

How the results depend on the processing

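The tissue counts were stable: 19 collagens were higher in control pituitary under every alternative run and 20 in TCDD samples, with Col4a4 lower as well under median scaling (-0.42, adjusted p = 0.0458) and without hypothalamus TCDD replicate 4 (-0.59, adjusted p = 0.0124). The TCDD counts moved. In pituitary the main fit called 87 probes, the authors' values 218, array weights 231, pituitary fitted alone 26 and the replicate block 40, and leaving out 1 array gave 40 to 90. The collagen count there, 1, was 0 without the detection filter, with pituitary fitted alone, with the replicate block and with both hypothalamus arrays numbered 3 left out, and 0 to 1 on leaving out 1 array. With the authors' values the 1 collagen was Col15a1 (0.24, adjusted p = 0.0403) and not Col5a3. Col5a3 kept its sign throughout, from 0.35 to 1.64, with adjusted p from 0.0103 to 0.157. In hypothalamus the main fit called 3 probes; an offset of 50, median scaling and the loss of both arrays numbered 3 gave 1, while no background correction, the authors' values, that tissue fitted alone and the replicate block gave 0, and leaving out 1 array gave 0 to 16. The difference of the TCDD effects called 26 probes, 5 with the replicate block, 11 without both arrays numbered 3 and 10 to 28 on leaving out 1 array. The labels do not say whether replicate numbers pair the samples. Of 11 same-numbered pairs of arrays, deviations from the group means correlated over 0.1 in 2 (-0.068 to 0.136). Pairs of the same treatment across the tissues gave 0.024 (control 1), 0.023 (control 3) and -0.015 (TCDD 1). Correlations from 3 arrays a group cannot tell whether samples shared a dam or litter. The block, which gave Col5a3 an adjusted p of 0.0619 and Thbs4 one of 0.0672, is a check only. The share of calls that were higher was 57.5% in pituitary and 43.1% with the authors' values, and for the tissues in controls 48.4% and 58.4%, in TCDD samples 47.6% and 57.8%. Median scaling put the median of the difference of effects over all probes at 0.107, against -0.00. Values called in neither setting were judged against 1 SD between replicates. Of 1656 single collagen values recomputed, no called one changed sign, and 31 uncalled ones did. The cause of these shifts was not tested. Signal near background limits Col5a3, Col17a1, Col4a4 and, in hypothalamus, Col7a1, Col8a1, Col13a1 and Col15a1.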
